A study of Mus musculus with 6 samples.

Results

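The response of NMuMG cells to TGF-β was followed across the transcriptome by setting the libraries of cells given TGFbeta against those of cells given DMSO, the vehicle control. NMuMG is an epithelial line derived from mouse mammary gland. The libraries were chosen by their treatment labels and are 4 of the 6 libraries of the series, 2 with DMSO alone and 2 with TGFbeta. The other 2 libraries, from cells given TGFbeta and 2APB together, served to estimate the spread in the shared model and counted in the mean and the scaling that decide which genes are tested. The labels give no dose, no time and no further treatment. The text of the study states a dose, a time and serum starvation before treatment, which are not repeated here. Each group is a pair of samples of 1 cell line, which the methods call biological replicates, and the p-values measure the spread between these samples. The question of the comparison is which genes change their RNA level when these cells are given TGF-β.

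TGF-β is a secreted growth factor whose receptors phosphorylate Smad proteins, which enter the nucleus and regulate transcription. In many epithelial cells it sets off the epithelial-mesenchymal transition (EMT), in which cells lose junctions and polarity and take up a contractile, migratory and matrix-producing state. Transcription factors of the Snail and Zeb families, which repress junction genes, are well known mediators of this change, and in epithelial cells TGF-β is also known for arresting the cell cycle.

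Between 71840570 and 79473182 counts were assigned to genes per library over all 6 libraries. The 4 compared here held 76741720 and 71840570 counts with DMSO and 79473182 and 72543866 with TGF-β. Values below are normalized counts, scaled to the mean library, with replicate 1 before replicate 2. The DMSO replicates lay closer together than the TGF-β replicates, with a median absolute log2 difference per gene of 0.0655 against 0.22.

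Of 13353 genes tested, 5548 (41.5%) were called at an adjusted p of 0.05 or less by edgeR's quasi-likelihood test, 2914 (21.8%) higher and 2634 (19.7%) lower with TGF-β. The median log2 fold change over all genes tested was -0.01. Changes were often moderate, and 967 of the genes called higher and 1150 of those called lower reached a log2 fold change of 1 in size. A log2 fold change of 4 in size was reached by 154 genes called higher and 158 called lower. The genes called higher held 19.2% and 19.4% of all counts with DMSO and 32.6% and 31.5% with TGF-β. The genes called lower held 24.7% and 24.5% with DMSO and 13.6% and 13.2% with TGF-β. The number of calls was lower without either DMSO library, at 2753 without replicate 1 and 2895 without replicate 2, and higher without either TGF-β library, at 6968 without replicate 1 and 7641 without replicate 2. A gene that misses the threshold is not thereby shown to be the same in both groups. All libraries are bulk RNA, in which fewer cells of a type and less RNA per cell cannot be told apart.

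The labelled cell type was compared with its markers first. The simple-epithelial keratins were abundant, with 252654 and 234425 counts of Krt8 in the DMSO libraries and 413159 and 355554 in the TGF-β libraries. Several markers of mammary luminal cells were low in the DMSO libraries, among them the estrogen receptor gene Esr1 (1.97 and 2.07 with DMSO, 0 and 6.23 with TGF-β), Elf5 (17.7 and 8.26, then 3.90 and 2.08) and the casein gene Csn3 (0 and 6.20, then 33.1 and 51.9). Other mammary luminal genes were abundant with DMSO, among them Krt18 (173694 and 161005), Krt19 (45112 and 42139) and Wnt4 (3762 and 3709). Hepatocyte markers were abundant in the DMSO libraries as well, with 31570 and 28821 counts of the albumin gene Alb and 42565 and 41967 of Hnf4a, a transcription factor of liver and gut epithelium. The cells are called NMuMG here as the labels do. Of the mammary luminal and milk genes, 6 of 17 tested were called higher and 7 lower (4 or 4 lower without DMSO replicate 1 or 2). They included Mfge8, a milk fat globule protein, at 11323 and 11066, then 22158 and 17948, and Lcn2, an iron-binding secreted protein, at 6706 and 6803, then 173 and 95.5.

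The known feedback and early target genes of TGF-β rose almost as a group, with 19 of 23 tested members called higher and 1 lower (0 lower without DMSO replicate 1, 2 without either library with 2APB and in a fit of the 4 libraries alone), and a median log2 fold change of 1.0. Il11, a cytokine of the interleukin-6 family, went from 74.7 and 76.4 counts with DMSO to 18367 and 19660 with TGF-β (log2 fold change 7.97 ± 0.17 (SE), adjusted p = 2.12e-05). Its TGF-β replicates were close to each other and far above the DMSO replicates. Ctgf, a matricellular protein, stood at 43717 and 43254, then 170262 and 149977 (log2 fold change 1.88 ± 0.10 (SE), adjusted p = 0.00012), and Smad7, the inhibitory Smad, at 4680 and 4655, then 9118 and 9573 (log2 fold change 1.0 ± 0.08 (SE), adjusted p = 0.000405). Ldlrad4, which binds Smads and dampens the pathway, rose from 167 and 184 to 2567 and 2596. Bambi, a pseudoreceptor that also inhibits the pathway, was the member called lower in the fit of all 6 libraries, from 839 and 828 to 475 and 332 (adjusted p = 0.0071, and 0.0533 without DMSO replicate 1). Skil, a repressor of Smads, rose (9875 and 10134 to 13384 and 20851, adjusted p = 0.035), but its TGF-β replicates lay far apart, and adjusted p values of 0.16 and 0.142 were reached without DMSO replicate 1 and 2.

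The ligands, receptors and Smads themselves had 12 of 21 members called higher and 2 lower. The ligand gene Tgfb1 rose from 2158 and 2074 to 6346 and 5315 (log2 fold change 1.46 ± 0.10 (SE), adjusted p = 0.000321), with Ltbp1, a protein that stores the ligand in the matrix (2551 and 2876 to 13887 and 13231), and Lrrc32, which holds it at the cell surface (819.6 and 802 to 5220 and 4736). The receptor gene Tgfbr1 was at 13892 and 13840 with DMSO and 12654 and 20254 with TGF-β, groups that overlapped (adjusted p = 0.408). Dab2, an endocytic adaptor of the receptors, fell from 7105 and 7053 to 2310 and 1955 (log2 fold change -1.73 ± 0.18 (SE), adjusted p = 0.00123). Among the Id genes and BMP signalling genes 10 of 20 rose and 6 fell (3 or 3 without DMSO replicate 1 or 2). The genes Id1 and Id3, which encode inhibitors of helix-loop-helix factors, fell, Id1 from 18179 and 16100 to 7098 and 5570 (log2 fold change -1.44 ± 0.16 (SE), adjusted p = 0.00147) and Id3 from 2604 and 2018 to 1175 and 942 (log2 fold change -1.13 ± 0.17 (SE), adjusted p = 0.0041). The secreted BMP and activin antagonists Grem1 (31.4 and 22.7 to 372 and 594) and Fst (428 and 434 to 2174 and 2687) rose, as did the activin subunit gene Inhbb (362 and 351 to 2581 and 2214).

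Of the EMT transcription factors, 13 of 23 tested (56.5%) were called higher and 4 (17.4%) lower (median log2 fold change 0.77). Over all genes the shares were 21.8% and 19.7%, so the share called lower was near that of all genes. Zeb1 had 3707 and 3715 counts with DMSO and 8964 and 9824 with TGF-β (log2 fold change 1.34 ± 0.09 (SE), adjusted p = 0.000268), and Zeb2 had 1443 and 1380, then 3898 and 6176 (log2 fold change 1.83 ± 0.22 (SE), adjusted p = 0.00183). Both repress E-cadherin, and for each of them the TGF-β libraries lay above the DMSO libraries. Snai1, another repressor of E-cadherin, had few counts in all 4 libraries, 5.90 and 12.4 with DMSO and 25.3 and 41.5 with TGF-β (log2 fold change 1.86 ± 0.52 (SE), adjusted p = 0.0341). Its call was lost without DMSO replicate 1 (adjusted p = 0.179) or 2 (0.0625) or TGF-β replicate 2 (0.0869), and that of Snai2 without either DMSO library (179 and 172 to 325 and 448, adjusted p = 0.00819, then 0.0608 and 0.0665). Twist1 was not tested, with 0 and 0 counts with DMSO and 0 and 6.23 with TGF-β. Hmga2, a chromatin protein of embryonic and mesenchymal cells, rose from 6590 and 6752 to 26959 and 28731 (log2 fold change 2.06 ± 0.09 (SE), adjusted p = 7.63e-05), and Runx1 from 1673 and 1781 to 5119 and 5754. Sox9 (9627 and 10002 to 6851 and 6157), Tead4 (2205 and 2130 to 1108 and 929.7) and Ets2 (21092 and 20584 to 10819 and 8517) fell.

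The epithelial transcription factors and splicing regulators went the other way, with 11 of 18 tested called lower and 1 higher, and a median log2 fold change of -1.01 (6 or 7 lower without DMSO replicate 1 or 2). Leaving aside members whose mean was below 200, the factors Ehf and Elf3, which maintain epithelial programs, had the largest falls, Ehf from 6429 and 6388 to 742 and 662 (log2 fold change -3.19 ± 0.11 (SE), adjusted p = 4.84e-05) and Elf3 from 4985 and 4888 to 1077 and 824 (log2 fold change -2.38 ± 0.14 (SE), adjusted p = 0.000165). The splicing regulators Rbm47 (11217 and 10964 to 3952 and 3308) and Esrp2 (4106 and 3882 to 2051 and 2000) fell as well. Klf4 fell from 1148 and 1087 to 399 and 542 (log2 fold change -1.25 ± 0.15 (SE), adjusted p = 0.00208). Gata3, a factor of luminal cells, was the member that rose, from 33.4 and 28.9 to 156 and 147. Esrp1 (1.97 and 0, then 0 and 2.08) and Grhl2 (1.97 and 4.13, then 3.90 and 0), common markers of epithelia, were at or near 0 in all 4 libraries and were not tested.

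Junction genes changed in part. E-cadherin, encoded by Cdh1 (chromosome 8, chr8:106603351-106670246 on GRCm38), had 91180 and 90601 counts in the DMSO libraries and 58611 and 47241 in the TGF-β libraries (log2 fold change -0.78 ± 0.13 (SE), adjusted p = 0.0055), so that its RNA was lower but still abundant. Of the adherens junction and desmosome genes, 8 of 21 tested fell and 7 rose (4 or 3 higher without DMSO replicate 1 or 2). The desmosome genes Dsp (69860 and 68150 to 34930 and 33742, log2 fold change -1.01 ± 0.07 (SE), adjusted p = 0.000253) and Dsg2 (38532 and 36412 to 16456 and 17039) fell, while Pkp1, a desmosomal plaque protein, went from 7.86 and 10.3 to 2127 and 1930 (log2 fold change 7.79 ± 0.22 (SE), adjusted p = 3.05e-05). Beta-catenin (Ctnnb1), which links E-cadherin to the cytoskeleton, fell from 410222 and 401386 to 244236 and 217777 (log2 fold change -0.81 ± 0.07 (SE), adjusted p = 0.0007), 1 of the 5 largest falls in normalized counts. Epcam was low throughout (128 and 163, then 50.6 and 58.1, adjusted p = 0.0141), and its call was lost without DMSO replicate 1 (0.054) or 2 (0.1).

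Among the tight junction and polarity genes 14 of 29 tested fell and 4 rose. The scaffold genes Tjp1 (30630 and 31581 to 18527 and 20063, log2 fold change -0.69 ± 0.07 (SE), adjusted p = 0.00106) and Tjp3 (1189 and 1081 to 265 and 195), the occludin gene Ocln (5496 and 5370 to 3500 and 3364), its relative Marveld2 (2508 and 2202 to 518 and 525) and the polarity gene Llgl2 (10879 and 10444 to 2949 and 2415) were lower. The claudin gene Cldn4 went against them, from 1.97 and 6.20 to 713 and 743 (log2 fold change 7.45 ± 0.36 (SE), adjusted p = 0.000102). Of the epithelial keratins, membrane proteases and surface proteins, 12 of 28 tested (42.9%) fell and 5 (17.9%) rose. Over all genes 19.7% fell and 21.8% rose, so the share that rose was near that of all genes. The keratins split, since Krt8 (log2 fold change 0.66 ± 0.09 (SE), adjusted p = 0.00296) and Krt18 (173694 and 161005 to 340595 and 290993, log2 fold change 0.92 ± 0.10 (SE), adjusted p = 0.00122) rose and Krt19 fell (45112 and 42139 to 12510 and 8776, log2 fold change -2.04 ± 0.35 (SE), adjusted p = 0.00659). The mucins Muc1 (9250 and 8621 to 912 and 693) and Muc4 (362 and 444 to 9.74 and 4.15) and the receptor gene Erbb3 (1804 and 1704 to 93.5 and 60.2, log2 fold change -4.51 ± 0.26 (SE), adjusted p = 0.00016) fell.

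**Figure D1:**
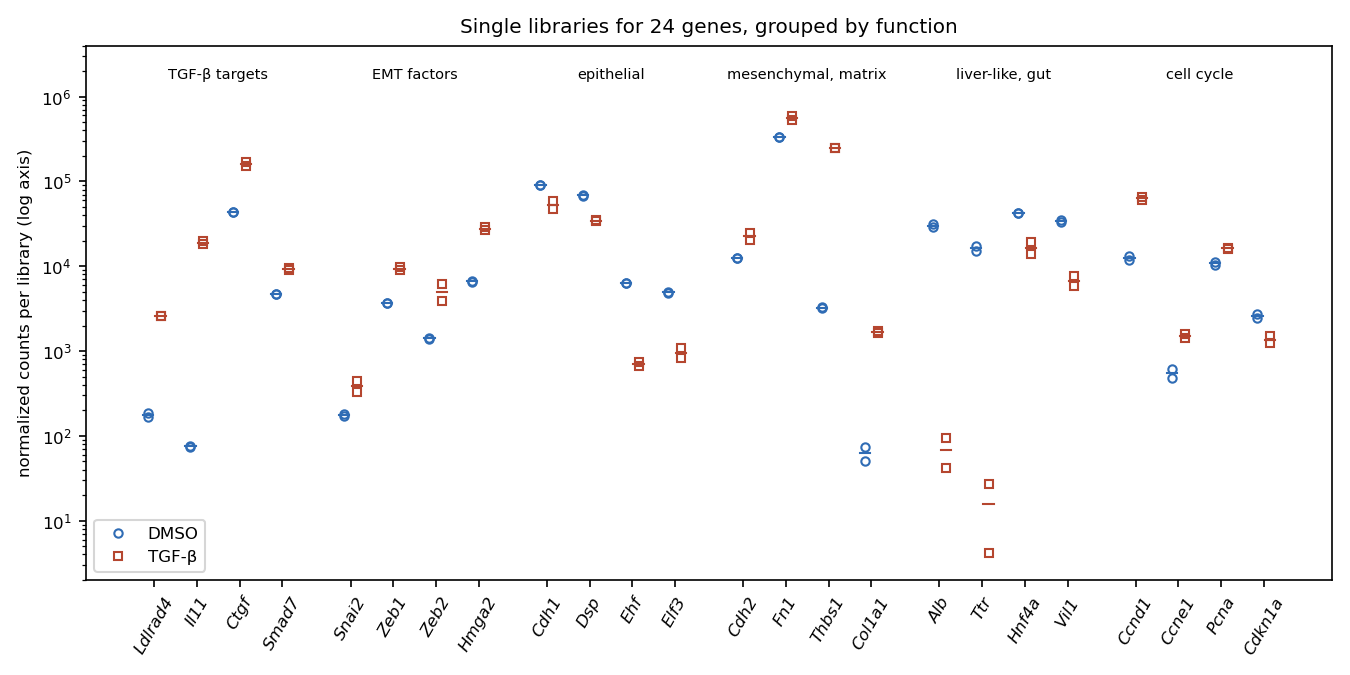
Normalized counts (log axis) of 24 genes in each of the 4 libraries, grouped by function, with circles for the 2 DMSO libraries, squares for the 2 TGF-β libraries and short lines for the mean of each pair. For every gene shown the groups do not overlap, which also holds for 72.5% of all genes tested and for every gene called. All genes shown were called, so this follows from their choice. The distance on the log scale is smallest for Pcna (10254 and 11307 against 16183 and 16315) and largest for Ttr (17200 and 15245 against 27.3 and 4.15).

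Mesenchymal marker genes rose, with 19 of 24 tested called higher and 1 lower (0 or 0 lower without DMSO replicate 1 or 2, and 2 without TGF-β replicate 1, without either library with 2APB, in a fit of the 4 libraries alone, with DESeq2 or with halved counts), and a median log2 fold change of 0.80. N-cadherin (Cdh2) was already expressed with DMSO, at 12505 and 12495, and reached 20607 and 24719 with TGF-β (log2 fold change 0.86 ± 0.10 (SE), adjusted p = 0.00187). Vimentin (Vim) went from 89244 and 83748 to 130433 and 115807 (log2 fold change 0.51 ± 0.09 (SE), adjusted p = 0.0062), a call lost without DMSO replicate 2 (adjusted p = 0.0625). Larger rises were those of Nt5e, a cell surface nucleotidase (654 and 645 to 10918 and 13700, log2 fold change 4.24 ± 0.18 (SE), adjusted p = 7.25e-05), and of the receptor gene Pdgfrb (9.83 and 12.4 to 621 and 523, log2 fold change 5.67 ± 0.23 (SE), adjusted p = 6.67e-05). Pdgfra, its relative, had 76.7 and 76.4, then 85.7 and 93.4 counts (adjusted p = 0.431). Mmp2, often used as a mesenchymal marker, was at or near 0 in all 4 libraries (1.97 and 0, then 1.95 and 0).

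Actin and contractile genes had 29 of 38 tested members called higher and 4 lower (2 lower without either DMSO library, without either or both libraries with 2APB or with no filter, median log2 fold change 0.98). Together they held 1.57% and 1.53% of all counts with DMSO and 2.90% and 2.72% with TGF-β. Tropomyosin 1 (Tpm1) rose from 45906 and 44359 to 100444 and 101899 (log2 fold change 1.17 ± 0.06 (SE), adjusted p = 0.000134), the nonmuscle myosin heavy chain gene Myh9 from 130215 and 129262 to 325538 and 295978 (log2 fold change 1.26 ± 0.07 (SE), adjusted p = 0.000145) and Tagln, an actin-binding protein of smooth muscle, from 118 and 118 to 1138 and 1129 (log2 fold change 3.26 ± 0.21 (SE), adjusted p = 0.000229). Smooth muscle actin (Acta2) stayed low, at 19.7 and 10.3, then 107 and 47.7 (adjusted p = 0.0169, lost without DMSO replicate 1 at 0.0515 and without replicate 2 at 0.104). The myosin light chain kinase gene Mylk fell, from 14458 and 14768 to 4393 and 4250 (log2 fold change -1.76 ± 0.22 (SE), adjusted p = 0.00206). YAP target genes, which respond to tension and cell shape, had 17 of 23 called higher and 2 lower, among them Ankrd1 (24441 and 23377 to 57152 and 70726, log2 fold change 1.42 ± 0.14 (SE), adjusted p = 0.000838) and Amotl2 (15586 and 14944 to 29361 and 28942).

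The extracellular matrix was altered in part. Of 40 collagen chains found, 21 were tested, 12 were called higher and 0 lower by edgeR, with a median log2 fold change of 1.79 over those tested (0.66 with no filter on the mean count). At an unadjusted p under 0.05, 1 was lower, and DESeq2 called 0 lower. Without either TGF-β library, or with no filter, edgeR called 1 lower. Col7a1, the chain of anchoring fibrils, rose from 144 and 109.5 to 14428 and 19689 (log2 fold change 7.07 ± 0.26 (SE), adjusted p = 5.13e-05), and Col5a1, a fibril-forming chain, from 1221 and 1316 to 7357 and 7126 (log2 fold change 2.51 ± 0.08 (SE), adjusted p = 4.47e-05). Col1a1 reached 1625 and 1724 from 51.1 and 74.4 (log2 fold change 4.74 ± 0.23 (SE), adjusted p = 0.000103), while Col1a2, its partner chain in type I collagen, had 0 and 0, then 5.84 and 4.15. The basement membrane chain Col4a1 was abundant in both groups (36737 and 36558, then 44868 and 40069, adjusted p = 0.076).

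Fibronectin, matricellular and elastic fibre genes had 12 of 22 called higher and 4 lower (1 or 1 lower without DMSO replicate 1 or 2). Their share called higher was 54.5%, against 21.8% over all genes, and their share called lower, 18.2%, was close to the 19.7% over all genes. Thrombospondin 1 (Thbs1) had the largest rise in normalized counts of all genes, from 3294 and 3190 to 250290 and 249670 (log2 fold change 6.27 ± 0.12 (SE), adjusted p = 2.12e-05). Fibronectin (Fn1) came next, from a high level of 333886 and 333782 to 590464 and 529092 (log2 fold change 0.75 ± 0.07 (SE), adjusted p = 0.000847), and the elastic fibre gene Fbln2 after it, from 8739 and 9444 to 204724 and 186921 (log2 fold change 4.43 ± 0.09 (SE), adjusted p = 2.12e-05). Thbs3, another thrombospondin, fell from 15543 and 15561 to 3966 and 3499 (log2 fold change -2.06 ± 0.24 (SE), adjusted p = 0.00164). Basement membrane genes had 5 of 16 called higher and 5 lower (4 or 3 lower without DMSO replicate 1 or 2). Laminin chains moved both ways, Lamb1 (8770 and 8902 to 28786 and 24624) and Lamb3 (3373 and 3428 to 8380 and 7942) upward and Lamb2 (31301 and 31596 to 8329 and 7290, log2 fold change -2.01 ± 0.10 (SE), adjusted p = 9.84e-05) downward, with the nidogen gene Nid2 (2455 and 2564 to 561 and 525).

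Enzymes that process and crosslink collagen had 13 of 22 members called higher and 2 lower (7 or 7 higher without DMSO replicate 1 or 2). Plod2, a lysyl hydroxylase, rose from 660.4 and 750 to 3964 and 5910 (log2 fold change 2.81 ± 0.25 (SE), adjusted p = 0.000706) and Loxl2, a lysyl oxidase, from 5179 and 5136 to 14325 and 13626 (log2 fold change 1.44 ± 0.09 (SE), adjusted p = 0.000202). Extracellular proteases and their inhibitors had 15 of 36 higher and 5 lower (1 or 1 lower without DMSO replicate 1 or 2). The gelatinase gene Mmp9 went from 27.5 and 20.7 to 3300 and 3275 (log2 fold change 7.08 ± 0.26 (SE), adjusted p = 5.2e-05) and the protease gene Adamts15 from 2105 and 2200 to 68.2 and 35.3 (log2 fold change -5.37 ± 0.34 (SE), adjusted p = 0.000218).

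Of the growth factor and cytokine genes, 25 of 61 tested (41.0%) were called higher and 13 (21.3%) lower, the latter close to the 19.7% over all genes (8 or 8 lower without DMSO replicate 1 or 2). Pdgfb (6746 and 6318 to 23917 and 22908, log2 fold change 1.84 ± 0.12 (SE), adjusted p = 0.000205) and Wnt9a (47.2 and 47.5 to 3471 and 3231, log2 fold change 6.14 ± 0.20 (SE), adjusted p = 4.05e-05) rose, while Fgf1 (10679 and 10351 to 912 and 795, log2 fold change -3.62 ± 0.10 (SE), adjusted p = 2.97e-05) and the chemokine gene Ccl20 (7646 and 7097 to 454 and 428, log2 fold change -4.06 ± 0.17 (SE), adjusted p = 6.67e-05) fell. Vegfa had 9354 and 9124, then 7928 and 9515 counts (adjusted p = 0.583). Of the MAP kinase feedback and early-response genes, 14 of 33 rose and 9 fell. The immediate early genes Fos (2673 and 1667 to 183 and 74.7, log2 fold change -4.07 ± 0.50 (SE), adjusted p = 0.00196) and Egr1 (13381 and 9376 to 2147 and 1172, log2 fold change -2.78 ± 0.32 (SE), adjusted p = 0.00163) fell, and the phosphatase gene Dusp1 rose (2052 and 1599 to 7593 and 6898, log2 fold change 1.99 ± 0.14 (SE), adjusted p = 0.000279).

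Interferon-response and antigen presentation genes had 20 of 39 tested members called lower and 2 higher (median log2 fold change -1.03). The count of falls was 6 or 8 without DMSO replicate 1 or 2, and that of rises 1 without DMSO replicate 2 and 4 by DESeq2. The RNA sensor gene Ddx58 fell from 1317 and 1227 to 378 and 357 (log2 fold change -1.79 ± 0.14 (SE), adjusted p = 0.000415). Beta-2-microglobulin (B2m), the light chain of MHC class I, rose instead, from 18607 and 17576 to 30949 and 27002 (log2 fold change 0.68 ± 0.09 (SE), adjusted p = 0.00248). Of the genes of store-operated calcium entry and calcium stores, which supply calcium signals, 9 of 22 rose and 2 fell (1 without DMSO replicate 1). The inositol trisphosphate receptor gene Itpr2 rose from 1307 and 1335 to 3165 and 3073 (log2 fold change 1.24 ± 0.07 (SE), adjusted p = 0.000139) and the calcium pump gene Atp2b1 fell from 17648 and 17834 to 6496 and 9992 (log2 fold change -1.11 ± 0.20 (SE), adjusted p = 0.00724). The channel gene Orai3 went from 2359 and 2233 to 1628 and 1318 (adjusted p = 0.00781, and 0.0661 without DMSO replicate 1). Orai1 (1889 and 1773, then 2180 and 1710, adjusted p = 0.659) and the sensor gene Stim1 (4556 and 4458, then 5055 and 4339, adjusted p = 0.656) did not pass the threshold.

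Of the fatty acid oxidation, peroxisome and ketogenesis genes, 31 of 42 tested (73.8%) were called lower and 1 higher, with a median log2 fold change of -0.63. Far fewer were called lower without either DMSO library. The count of rises was 0 without either DMSO library and without either or both libraries with 2APB and 2 without TGF-β replicate 2. Their share of all counts was 0.427% and 0.417% with DMSO and 0.242% and 0.220% with TGF-β. Catalase (Cat), the peroxisomal enzyme that breaks down hydrogen peroxide, went from 61125 and 58245 to 10873 and 9847 (log2 fold change -2.53 ± 0.08 (SE), adjusted p = 3.91e-05). Cpt1a, which carries fatty acids into mitochondria, fell from 25601 and 24439 to 11099 and 8029 (log2 fold change -1.39 ± 0.19 (SE), adjusted p = 0.00305), as did Ppara, the nuclear receptor that drives this pathway (501 and 407 to 89.6 and 51.9, log2 fold change -2.68 ± 0.37 (SE), adjusted p = 0.00298).

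Tricarboxylic acid cycle and pyruvate dehydrogenase genes had 11 of 30 called lower and 1 higher (6 or 6 lower without DMSO replicate 1 or 2, and 18 without TGF-β replicate 1). The count of rises was 2 without TGF-β replicate 1, with DESeq2 or with either other scaling, 5 without TGF-β replicate 2 and 0 without either DMSO library. The median log2 fold change of the list was only -0.17. Among its members Idh1, a cytosolic isocitrate dehydrogenase, fell from 32362 and 30649 to 8906 and 7639 (log2 fold change -1.93 ± 0.12 (SE), adjusted p = 0.000213) and pyruvate carboxylase (Pcx) from 3104 and 3078 to 804 and 641 (log2 fold change -2.10 ± 0.12 (SE), adjusted p = 0.000176). Idh2 fell less (22401 and 21883 to 15353 and 12559, adjusted p = 0.00524). Idh3a was the member called higher (5309 and 5221 to 6300 and 7296, log2 fold change 0.37 ± 0.09 (SE), adjusted p = 0.0242). Citrate synthase (Cs) was not called (19262 and 18923, then 24552 and 21349, adjusted p = 0.0524). Nuclear genes of the respiratory chain had 22 of 76 lower and 1 higher, with a median of only -0.19. This count depended on single libraries, with 4 or 7 lower without DMSO replicate 1 or 2, 43 without TGF-β replicate 1, 11 without either library with 2APB and 11 in a fit of the 4 libraries alone. Without TGF-β replicate 2, 10 were called higher, and with no filter 2. Of the glycolysis genes 5 of 27 (18.5%) were higher, below the 21.8% over all genes, and 9 (33.3%) lower (5 lower without DMSO replicate 1, 8 higher without TGF-β replicate 2 or with DESeq2, which called 11 lower). Hexokinase 2 (Hk2) rose from 1739 and 1857 to 6627 and 6008 (log2 fold change 1.81 ± 0.09 (SE), adjusted p = 9.75e-05) and Pdk1, a kinase that inhibits pyruvate dehydrogenase, fell from 5871 and 5659 to 2084 and 1876 (log2 fold change -1.54 ± 0.08 (SE), adjusted p = 0.000128).

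Fatty acid and glycerolipid synthesis genes had 14 of 29 called lower and 6 higher (2 or 2 higher without DMSO replicate 1 or 2). Their share called lower was 48.3%, against 19.7% over all genes, and their share called higher, 20.7%, was close to the 21.8% over all genes. The regulator gene Srebf1 fell from 28464 and 27280 to 11869 and 10042 (log2 fold change -1.35 ± 0.10 (SE), adjusted p = 0.000373) and the desaturase gene Scd2 from 240696 and 225555 to 132188 and 110416 (log2 fold change -0.94 ± 0.11 (SE), adjusted p = 0.00151), while fatty acid synthase (Fasn) had 47848 and 45895, then 50502 and 41835 counts (adjusted p = 0.89). Cholesterol synthesis and uptake genes had 5 of 26 higher and 5 lower, shares close to those of all genes. These counts were 3 or 2 higher and 1 or 3 lower without DMSO replicate 1 or 2, 3 lower without either or both libraries with 2APB, 11 lower without TGF-β replicate 1 and 8 higher without TGF-β replicate 2. ATF4 targets, amino acid synthesis genes and tRNA synthetases had 18 of 42 higher and 8 lower (9 or 9 and 5 or 5 without DMSO replicate 1 or 2). Their share called higher was 42.9%, against 21.8% over all genes, and their share called lower, 19.0%, was close to the 19.7% over all genes. The amino acid transporter gene Slc38a2 rose from 12084 and 12305 to 22191 and 24149 (log2 fold change 0.93 ± 0.09 (SE), adjusted p = 0.000783), and Psat1, an enzyme of serine synthesis, fell from 19230 and 18755 to 5201 and 4302 (log2 fold change -2.0 ± 0.12 (SE), adjusted p = 0.000175).

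Liver-like genes of these cells fell widely. Of the plasma protein and apolipoprotein genes, 41 of 49 tested were called lower and 1 higher, with a median log2 fold change of -4.56, and 36 of them fell by 2 or more on the log2 scale. Their share of all counts went from 1.53% and 1.51% to 0.388% and 0.554%. This share depends most on abundant members, of which Apob was the highest over the 4 libraries. It was higher in TGF-β replicate 2, while the median log2 difference of the tested members, replicate 2 against 1, was -0.60. Albumin (Alb, chromosome 5, chr5:90460897-90476602 on GRCm38) had 31570 and 28821 counts with DMSO and 93.5 and 41.5 with TGF-β (log2 fold change -8.79 ± 0.41 (SE), adjusted p = 9.84e-05). The thyroxine carrier transthyretin (Ttr) had 17200 and 15245, then 27.3 and 4.15 (log2 fold change -9.97 ± 0.47 (SE), adjusted p = 9.84e-05), and Apoa1, the main protein of high-density lipoprotein, had 10820 and 9101, then 21.4 and 6.23 (log2 fold change -9.46 ± 0.38 (SE), adjusted p = 6.67e-05). In each case both TGF-β libraries were far below both DMSO libraries, and TGF-β replicate 2 was the lower of the pair. The complement gene C3 had the largest fall in normalized counts of all genes, from 182670 and 186130 to 9782 and 4918 (log2 fold change -4.65 ± 0.83 (SE), adjusted p = 0.00719), followed among the 5 largest by Ctnnb1, Xist, the selenium carrier gene Sepp1 (155063 and 148353 to 36849 and 27355) and Scd2. Xist, the RNA that coats the inactive X chromosome, was at 300787 and 325218 with DMSO and 112751 and 205828 with TGF-β (adjusted p = 0.0324, lost without DMSO replicate 1 at 0.108 and without replicate 2 at 0.135).

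Enzymes of drug and steroid metabolism fell with them. Cytochrome P450 genes had 20 of 33 tested called lower and 3 higher, with a median log2 fold change of -1.53. This median was -0.94 or -0.98 without DMSO replicate 1 or 2 and -2.84 with no filter on the mean count. Of the conjugating and glutathione enzymes 32 of 46 tested were lower and 1 higher (2 higher without either or both libraries with 2APB, median -1.63). Cyp2c65 went from 6427 and 6136 to 72.1 and 54.0 (log2 fold change -6.63 ± 0.16 (SE), adjusted p = 2.29e-05), Sult1d1, a sulfotransferase, from 2936 and 2494 to 21.4 and 22.8 (log2 fold change -6.93 ± 0.15 (SE), adjusted p = 2.14e-05) and Gsta4, a glutathione transferase, from 71605 and 67133 to 5228 and 3683 (log2 fold change -3.96 ± 0.19 (SE), adjusted p = 9.84e-05). Cyp1b1, which metabolises aromatic hydrocarbons, rose from 175 and 213 to 808 and 807 (log2 fold change 2.06 ± 0.15 (SE), adjusted p = 0.000361). Cyp2c, Cyp4a and glutathione transferase genes have near-identical copies, and how reads shared by several copies were counted is not stated, so single members of these families are uncertain.

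The transcription factors of liver had a smaller median fall than the plasma protein genes. Of the hepatic factors and nuclear receptors, 19 of 29 tested were called lower and 0 higher by edgeR, with a median of -0.91. At an unadjusted p under 0.05, 2 were higher, DESeq2 called 0, and without TGF-β replicate 2 edgeR called 2. Hnf4a had 42565 and 41967 counts with DMSO and 19117 and 14068 with TGF-β (log2 fold change -1.35 ± 0.20 (SE), adjusted p = 0.00352). Foxa3, another hepatic factor, fell further, from 778 and 754 to 115 and 70.6 (log2 fold change -3.04 ± 0.40 (SE), adjusted p = 0.00247).

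Intestinal and gastric epithelium genes had 18 of 24 called lower and 2 higher (1 without DMSO replicate 1 or in a fit of the 4 libraries alone), with a median log2 fold change of -3.56. Villin (Vil1), which bundles actin in the brush border, went from 35377 and 32877 to 7655 and 5846 (log2 fold change -2.34 ± 0.20 (SE), adjusted p = 0.000611) and the galectin gene Lgals4 from 1193 and 1002 to 33.1 and 39.4 (log2 fold change -4.92 ± 0.22 (SE), adjusted p = 8.42e-05). Tff3, a secreted trefoil peptide, had 898 and 684 counts with DMSO and 0 and 0 with TGF-β, a level at least 262-fold lower against a floor of 3 counts per library. Since all values of the table are even, each read may have been counted as 2, and with halved counts this bound is 131-fold. Ctse, a gastric protease, rose from 4511 and 4200 to 12519 and 11198 (log2 fold change 1.45 ± 0.09 (SE), adjusted p = 0.000233).

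Some epidermal genes rose from near 0 while more abundant ones fell. Of the cornified envelope and epidermal genes, 9 of 18 tested were called higher and 5 lower (2 or 3 lower without DMSO replicate 1 or 2 and 3 without TGF-β replicate 2 or with no filter). Lce1g, a late cornified envelope protein, went from 3.93 and 4.13 to 3031 and 2872 (log2 fold change 9.47 ± 0.20 (SE), adjusted p = 2.12e-05), and its neighbour Lce1f from 0 and 0 to 504 and 459, at least 159-fold higher (79.7-fold with halved counts). Involucrin (Ivl), a scaffold of the envelope, rose from 1624 and 1777 to 7223 and 8394 (log2 fold change 2.20 ± 0.11 (SE), adjusted p = 0.000102). Sprr1a, a small proline-rich protein and the most abundant of the list, fell from 42162 and 38535 to 26129 and 19976 (log2 fold change -0.81 ± 0.25 (SE), adjusted p = 0.0496), a call lost (adjusted p in brackets) without DMSO replicate 1 (0.195) or 2 (0.138), without TGF-β replicate 2 (0.124) and with no filter (0.0659). Periplakin (Ppl) fell from 26898 and 27526 to 12765 and 11569 (log2 fold change -1.16 ± 0.15 (SE), adjusted p = 0.00252). Together the list held 0.0977% and 0.0953% of all counts with DMSO and 0.0685% and 0.0615% with TGF-β, and its median log2 fold change was 1.34. The median was 0.57 without either or both libraries with 2APB, 2.14 or 2.11 without DMSO replicate 1 or 2, and 0.02 with no filter. The Lce1 genes are close copies of each other, so reads could be split between them. The basal keratin genes Krt5 (1.97 and 2.07, then 0 and 2.08) and Krt14 (0 and 0, then 1.95 and 0) were at or near 0 in all 4 libraries. Other genes that went from no counts in the DMSO libraries were Tmem119 (768 and 564, at least 220.3-fold higher against the same floor, 110-fold with halved counts), Ntsr1, a neurotensin receptor (806 and 519, at least 219-fold, or 110-fold halved), and the kinesin gene Kif26b (481 and 413, at least 148-fold, or 74.0-fold halved). Of 61 tested genes with no count in either DMSO library 39 were called higher, and of 15 with none in either TGF-β library 13 were called lower. Such genes pass the filter on the mean through the other groups alone, and the libraries with TGFbeta and 2APB count in that mean, so the 2 numbers cannot be set against each other.

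Genes of DNA replication and the G1/S transition rose, 43 of 56 called higher and 0 lower by edgeR, with a median log2 fold change of 0.64 (22 or 28 higher without DMSO replicate 1 or 2). At an unadjusted p under 0.05, 0 were lower, and DESeq2 called 0 lower. Cyclin D1 (Ccnd1), which drives entry into the cycle, went from 11917 and 13099 to 65323 and 60491 (log2 fold change 2.33 ± 0.08 (SE), adjusted p = 5.09e-05), cyclin E1 (Ccne1) from 476 and 618 to 1590 and 1444 (log2 fold change 1.47 ± 0.15 (SE), adjusted p = 0.00103) and the sliding clamp Pcna from 10254 and 11307 to 16183 and 16315 (log2 fold change 0.59 ± 0.07 (SE), adjusted p = 0.00225). Of the CDK inhibitors, D cyclins and pocket proteins, 11 of 28 rose and 6 fell (4 or 6 higher without DMSO replicate 1 or 2). The share that rose was 39.3%, against 21.8% over all genes, and the share that fell, 21.4%, was close to the 19.7% over all genes. The inhibitor genes split, with Cdkn2b higher (3748 and 3773 to 9169 and 8819, log2 fold change 1.26 ± 0.07 (SE), adjusted p = 0.000139) and Cdkn1a (2758 and 2456 to 1490 and 1245, log2 fold change -0.93 ± 0.15 (SE), adjusted p = 0.00506) and Cdkn1b (6411 and 6764 to 3950 and 4279) lower. Myc, which TGF-β is known to repress in epithelial cells, rose from 5690 and 5640 to 13096 and 13117 (log2 fold change 1.21 ± 0.07 (SE), adjusted p = 0.000131).

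Of the mitosis genes, 16 of 57 (28.1%) were called higher and 2 (3.51%) lower, against 21.8% and 19.7% over all genes. Their median log2 fold change was 0.18 (0.06 or 0.30 without DMSO replicate 1 or 2). Without DMSO replicate 1 or 2 the count of rises was 4 or 8, and that of falls 0 or 0. The count of falls was 11 without TGF-β replicate 2, 1 with RLE scaling or no filter and 0 without either or both libraries with 2APB. The proliferation marker Mki67 had 10716 and 12163 counts with DMSO and 6933 and 13045 with TGF-β (adjusted p = 0.627), so its TGF-β replicates spanned the DMSO values. Mybl2, which drives late cell cycle genes, rose from 831 and 973 to 1999 and 1754 (log2 fold change 1.06 ± 0.12 (SE), adjusted p = 0.00141). BCL2 family and p53 target genes had 9 of 28 higher and 4 lower (4 or 3 higher and 2 or 2 lower without DMSO replicate 1 or 2, 8 or 7 lower without TGF-β replicate 1 or 2, 7 by DESeq2). The death receptor gene Fas fell from 1278 and 1258 to 354 and 253 (log2 fold change -2.06 ± 0.24 (SE), adjusted p = 0.0016) and Bok, a BCL2 relative, rose from 743 and 826 to 2499 and 2237 (log2 fold change 1.59 ± 0.11 (SE), adjusted p = 0.000283).

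Ribosome biogenesis genes rose widely too, with 46 of 62 higher and 0 lower by edgeR (1 lower at an unadjusted p under 0.05, 1 lower by DESeq2 and with library size scaling, 1 or 3 lower without TGF-β replicate 1 or 2) and a median of 0.53 (28 or 29 higher without DMSO replicate 1 or 2), among them Nop56 (7119 and 7584 to 16955 and 16523, log2 fold change 1.19 ± 0.07 (SE), adjusted p = 0.000166). Cytosolic ribosomal protein genes had only 7 of 82 higher and 1 lower, below the shares over all genes, with a median of 0.08 (-0.02 or 0.16 without TGF-β replicate 1 or 2, 0.05 with library size scaling or without DMSO replicate 2). This count too moved with single libraries, from 0 higher without either DMSO library to 45 higher without TGF-β replicate 2, and with DESeq2 it was 13. Without TGF-β replicate 1, 11 were called higher and 12 lower, and without either or both libraries with 2APB the rises were 4. The count of falls was 2 without TGF-β replicate 2 and 0 without either DMSO library, without either or both libraries with 2APB and with no filter. Rplp0 had 161175 and 149576, then 200610 and 161691 counts (adjusted p = 0.169).

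Endoplasmic reticulum chaperone and unfolded protein response genes had 13 of 40 called higher and 5 lower (5 or 5 higher and 2 or 3 lower without DMSO replicate 1 or 2, 9 or 8 lower without TGF-β replicate 1 or 2, 8 lower with library size scaling, 8 higher without 2APB library 1 and 8 in a fit of the 4 libraries alone). Creb3l1, a factor of secretory cells, rose from 349.9 and 357 to 1453 and 1341 (log2 fold change 1.98 ± 0.10 (SE), adjusted p = 0.00011), Herpud1 fell from 10857 and 10276 to 2698 and 1930 (log2 fold change -2.19 ± 0.18 (SE), adjusted p = 0.0005), and the chaperone gene Hspa5 had 36319 and 35664, then 37020 and 39082 (adjusted p = 0.362). Lysosomal genes had 25 of 63 lower and 7 higher, with 8 or 10 lower and 4 or 4 higher without DMSO replicate 1 or 2. The glucosidase gene Gaa fell from 16721 and 16375 to 7798 and 5671 (log2 fold change -1.30 ± 0.17 (SE), adjusted p = 0.00227), while cathepsin L (Ctsl) rose from 40505 and 38455 to 92777 and 89133 (log2 fold change 1.20 ± 0.08 (SE), adjusted p = 0.000245).

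**Figure D2:**
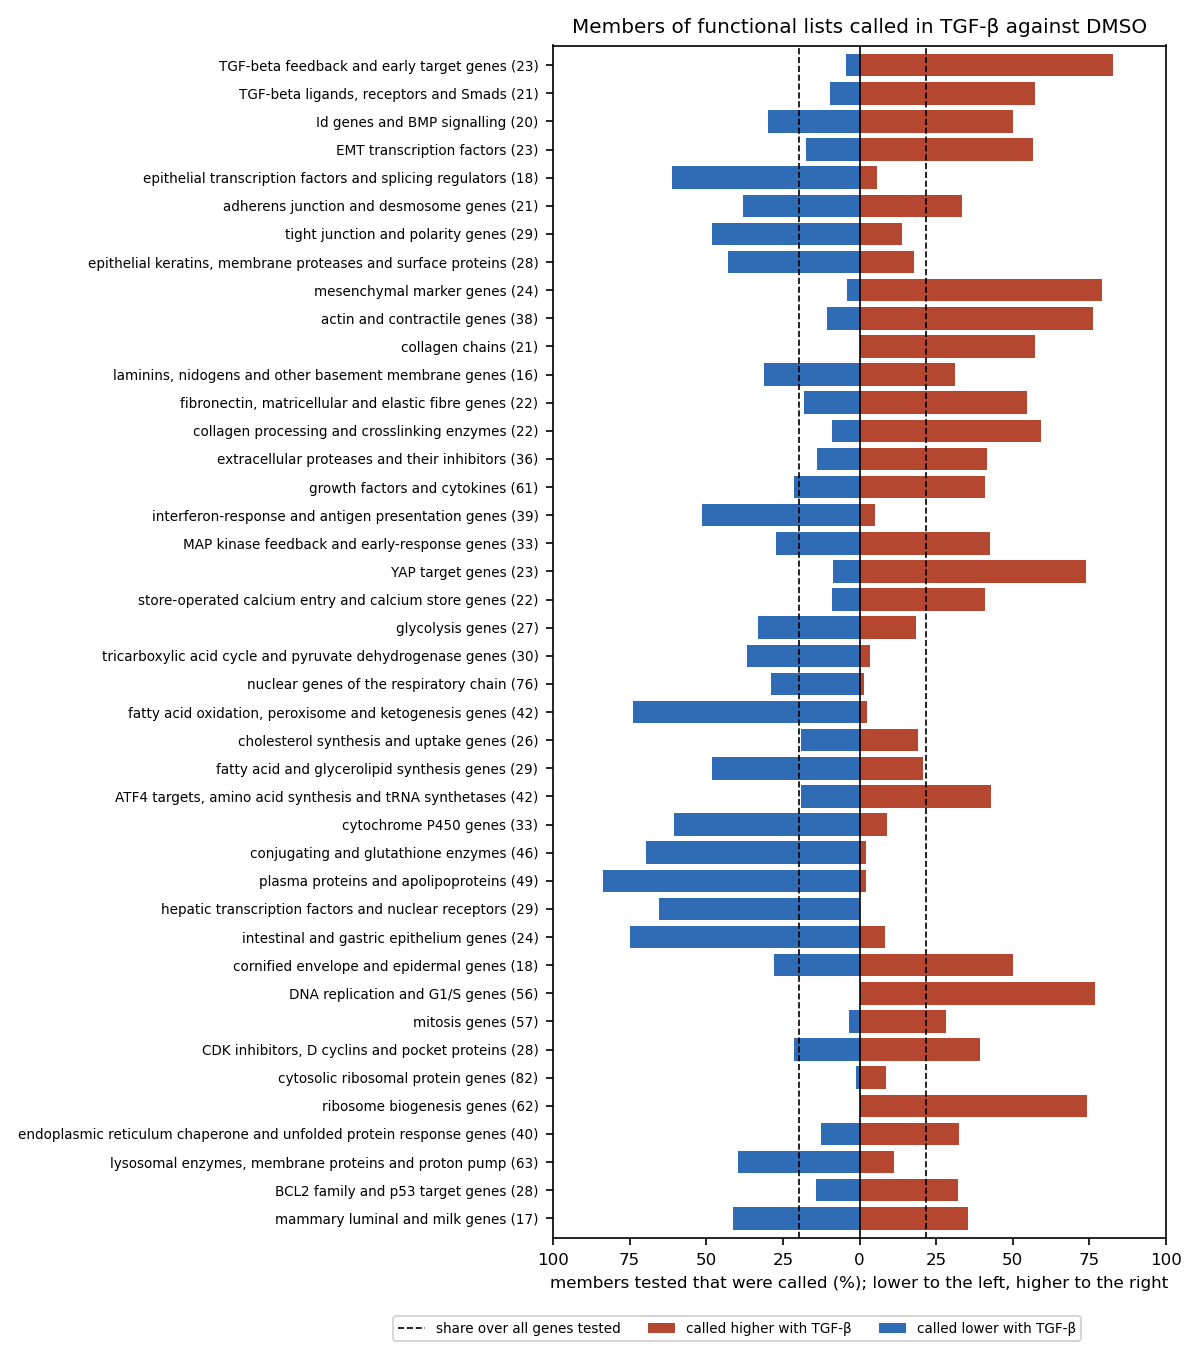
Share of the tested members of each functional list (number tested in brackets) called higher (right) or lower (left) with TGF-β, in percent, with dashed lines at the shares over all genes tested, 21.8% higher and 19.7% lower. Bars reach past the lines most for plasma proteins on the left (41 of 49) and for TGF-β targets on the right (19 of 23).

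Markers of other cell types were measured in the same libraries. Macrophage and leukocyte markers held 0.0293% and 0.0237% of all counts with DMSO and 0.0180% and 0.0128% with TGF-β, and 15 of 18 were tested, with 0 called higher and 0 lower by edgeR. At an unadjusted p under 0.05, 0 were lower and 0 higher, and DESeq2 called 0 lower. The median log2 fold change of these markers was -1.21 (-2.03 in a fit of the 4 libraries alone), with 13 below 0 and 2 above. Cd14 was the most abundant of them, at 16793 and 15572, then 12548 and 9100. Lyz2, a lysozyme of macrophages, had 3591 and 1116, then 789 and 189, so that replicate 1 was several times above replicate 2 in both groups, and the leukocyte gene Ptprc had 220.1 and 143, then 99.3 and 70.6. Left out in turn, the libraries with TGFbeta and 2APB gave 6 and 5 of these markers called lower, and a fit of the 4 libraries alone gave 5. Without TGF-β replicate 2 the number was 1. The part of such cells in the falls of complement, plasma protein and interferon-response genes was not tested. The T cell marker Cd3e was at 0 in all 4 libraries. Cd14, Lyz2 and Cd3e come from the marker list and were singled out after their values were seen, as were Esr1, Elf5, Col1a2, Map2 and Cidec.

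Of the fibroblast markers 6 of 13 were tested, 3 were called higher and 0 lower by edgeR (0 lower at an unadjusted p under 0.05, 0 lower by DESeq2), and they held 0.000401% and 0.000426% of all counts with DMSO and 0.00353% and 0.00361% with TGF-β. Col1a1 was the most abundant of them, while the fibroblast proteoglycan gene Dcn was at 3.93 and 0, then 1.95 and 0. Basal and myoepithelial markers had 3 of 5 tested higher (1 or 1 higher without DMSO replicate 1 or 2) and 1 lower, which was Mylk, the most abundant of them. They held 0.0194% and 0.0201% of all counts with DMSO and 0.00620% and 0.00606% with TGF-β, with the basal factor Trp63 at 5.90 and 4.13, then 3.90 and 0. Endothelial markers had 0 of 3 tested higher by edgeR (0 at an unadjusted p under 0.05, 0 by DESeq2, 1 without DMSO replicate 1) and 1 lower, which was Egfl7 (714 and 746 to 277 and 193, log2 fold change -1.64 ± 0.21 (SE), adjusted p = 0.0022), with the endothelial cadherin gene Cdh5 at 0 and 2.07, then 7.79 and 14.5. Erythroid, adipocyte and neuron markers had 1 of 5 tested higher (2 without TGF-β replicate 1 or with no filter), the microtubule gene Map2 (9.83 and 20.7 to 117 and 158), and 2 lower, the adipocyte genes Pparg (1995 and 1878 to 839.6 and 701, log2 fold change -1.33 ± 0.17 (SE), adjusted p = 0.00251) and Cidec (144 and 163 to 3.90 and 0, log2 fold change -6.18 ± 0.87 (SE), adjusted p = 0.00326).

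Promoters of the genes were searched for 5 short motifs on both strands, in RefSeq sequences (GRCm38.p6) from 250 bases before to 50 bases after each start. Of the 346 named genes, 239 had a promoter in that table. The tested genes matched 12737 promoters of 10014 genes, of which 2921 belonged to genes called higher and 2564 to genes called lower. CACCTG, the E-box bound by Snail and Zeb factors, was in 22.7% of promoters of genes called lower, in 16.4% of those called higher, in 18.0% of those tested and in 20.2% of all 32851 promoters. The E2F motif TTTCCCGC was in 2.60% of promoters of genes called higher, 1.05% of those called lower, 1.85% of those tested and 1.07% of all. TGANTCA, the AP-1 motif, was in 5.99% and 7.64% of promoters of genes called higher and lower, in 5.80% of those tested and in 7.81% of all. The Smad motif CAGAC (49.0% and 47.3%, 47.7% of those tested, 49.6% of all) and CCAAT (37.9% and 36.6%, 37.6% of those tested, 37.4% of all) had like shares in both. A match is a description of the letters in a window, not a site or a cause.

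Promoters of 4 named genes are printed to show the motifs in genes that moved. They were chosen after their values and sequences were seen, with CACCTG or its complement in capitals for the first 3 and TTTCCCGC or its complement for the last. Epcam and Tjp3 were called lower, Cldn4 and Cdc6 (611 and 769 to 1886 and 1646, log2 fold change 1.36 ± 0.14 (SE), adjusted p = 0.00112) higher. Epcam lies on the plus strand at chr17:87635729-87636028, Tjp3 (the first of its promoters) on the minus strand at chr10:81291532-81291831, Cldn4 on the minus strand at chr5:134946885-134947184 and Cdc6, which loads the replicative helicase, on the plus strand at chr11:98907901-98908200.
Epcam: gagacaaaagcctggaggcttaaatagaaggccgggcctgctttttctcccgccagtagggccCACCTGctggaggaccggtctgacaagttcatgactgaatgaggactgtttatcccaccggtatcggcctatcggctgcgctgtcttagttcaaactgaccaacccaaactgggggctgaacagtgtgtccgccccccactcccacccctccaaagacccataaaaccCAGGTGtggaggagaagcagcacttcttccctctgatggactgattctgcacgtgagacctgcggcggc
Tjp3: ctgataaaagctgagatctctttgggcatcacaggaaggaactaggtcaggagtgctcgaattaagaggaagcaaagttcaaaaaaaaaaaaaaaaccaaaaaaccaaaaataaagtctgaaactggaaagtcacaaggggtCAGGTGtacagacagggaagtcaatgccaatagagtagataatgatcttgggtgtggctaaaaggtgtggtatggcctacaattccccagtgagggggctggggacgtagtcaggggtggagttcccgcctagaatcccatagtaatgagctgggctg
Cldn4: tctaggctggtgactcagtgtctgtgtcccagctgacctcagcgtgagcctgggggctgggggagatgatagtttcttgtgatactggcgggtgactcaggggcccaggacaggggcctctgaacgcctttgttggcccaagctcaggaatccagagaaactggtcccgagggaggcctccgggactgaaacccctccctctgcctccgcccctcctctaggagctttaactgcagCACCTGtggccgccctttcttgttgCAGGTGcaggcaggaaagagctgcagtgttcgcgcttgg
Cdc6: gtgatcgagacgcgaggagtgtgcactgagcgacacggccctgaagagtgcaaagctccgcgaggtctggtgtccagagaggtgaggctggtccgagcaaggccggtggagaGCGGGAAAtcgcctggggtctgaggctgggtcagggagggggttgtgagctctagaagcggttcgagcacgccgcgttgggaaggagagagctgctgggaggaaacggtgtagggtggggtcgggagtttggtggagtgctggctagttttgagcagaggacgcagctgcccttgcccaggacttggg
The motif CACCTG occurs at 2 places in the windows of Epcam and Cldn4, a gene that fell and a gene that rose.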

How the data were processed

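Gene counts of 6 libraries, 2 each of cells given DMSO, TGFbeta, or TGFbeta with 2APB, were used as deposited. The authors assigned reads to genes and deposited raw counts per gene, in 1 table with 1 column per library. Column names were matched to the library titles, and 1 TGFbeta column is misspelled there. The processing notes name FastQC 0.11.2, TopHat2 2.0.13, DESeq2 1.6.1 and the mouse build mm10, whereas the methods of the study name hg19. The symbols are those of mouse. The annotation, strandedness and treatment of reads with several places are not given in the sources used here. All values of the table are even (0 odd values), and 25 of its 18512 entries had been turned into dates by a spreadsheet, so those genes are not named. Values of some genes are not reported here.

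Counts were scaled by TMM and tested with edgeR 4.0.16 (quasi-likelihood, 3 groups in 1 model, Benjamini-Hochberg adjustment, limma 3.58.1, R 4.3.3), in genes whose normalized counts averaged 20 or more over the 6 libraries, called at an adjusted p of 0.05 or less. Standard errors were derived from the fold change and the F statistic. Tables and figures used Python 3.11.15, pandas 2.3.3 and matplotlib 3.10.9. The test was run on simulated counts with few changed genes and the same spread for all genes. It called 57 of 97 genes (58.8%) with a true log2 change of 1 in size and 97 of 99 with 2. Of 13084 unchanged genes it called 8. These settings are unlike the data, so the run does not show how the test fares here. Library totals ranged from 71840570 to 79473182. Folds against a group at 0 used a floor of 3 counts per library, which covers counting error only. If each read was counted as 2, which the even values leave possible, these bounds halve. Positions of genes came from the GENCODE annotation of GRCm38 and promoter windows from RefSeq, both matched by symbol.

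Members and functional lists were chosen with earlier results of these data known. Named genes were set by rule: reference genes of each list, whatever their values; in each list up to 3 called members per direction with the largest log2 fold change, a mean of at least 200 and no overlap of groups; the 12 largest per direction over all genes under the same conditions; and the 5 largest differences in normalized counts. No list was tested, since 2 against 2 libraries allow no permutation p below 0.333. Alternatives were RLE and library size scaling, DESeq2 1.42.0, no filter, only the 4 libraries compared, the replicate number as a block, halved counts, and leaving out each library.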

Additional observations from a re-analysis of the deposited data

How the results depend on the processing

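The number of genes called was 5548, with 2914 higher and 2634 lower. Over the 7 alternatives that left out no library, the replicate block among them, it ran from 4737 to 6289. Leaving out each of the 6 libraries in turn gave 2753 to 7641 calls, 1469 to 3887 of them higher and 1284 to 3754 lower. The lowest values came without a DMSO library and the highest without a TGF-β library, and the cause was not tested. With 1 library left in a group, its spread was assumed to be that of the other groups. Fitting the replicate number as a block gave 4737 calls, 2496 higher and 2241 lower. The numbers do not pair the samples: same-numbered deviations from the group means had correlations of 0.148, -0.458 and -0.255.

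Of 280 named genes called, 261 kept their call and direction in the 7 alternatives that left out no library, and 224 in the 6 that left one out. No named gene (0) reversed. No list median changed sign under RLE or library size scaling. The median of mammary luminal and milk genes, -0.33, was 0.61 in the fit of 4 libraries, 0.12 with no filter, 0.13 without DMSO replicate 2 and 0.16 without replicate 2 of TGFbeta with 2APB. That of adherens junction and desmosome genes went from -0.09 to 0.03 without TGF-β replicate 2, and that of ribosomal protein genes from 0.08 to -0.02 without TGF-β replicate 1. The medians were the same with genes at 0 set to their bounds.

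Of genes with a mean of 20 to 200 counts 31.6% were called, against 43.7% to 44.6% above. No depth was varied, so the part of depth in this was not tested. With 2 libraries a side, a p that misses the threshold does not show that values did not differ.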
